A study of Mus musculus with 39 samples.

Results

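The genes described here are Trp53, which encodes the transcription factor p53, and the genes of 9 BCL2 family proteins: the effectors Bax and Bak1, the pro-survival genes Bcl2, Bcl2l1, Bcl2l2 and Mcl1, and the BH3-only genes Bcl2l11, Bbc3 and Pmaip1. They were chosen by symbol, with earlier results of these data known, and are 10 of the 21561 genes listed in both of the deposited count tables. RNA was sequenced from testis and gubernaculum (the ligament that draws the testis towards the scrotum) of male C57BL/6J mice that had received no drug and no surgery. All 3 genotypes (WT, INSL3-KI, INSL3-KO) were sampled for testis at postnatal days 8 (P8) and 23 (P23) and for gubernaculum at P8. Testis at P40 and gubernaculum at P23 lack INSL3-KO. INSL3 is the Leydig cell hormone that drives growth of the gubernaculum. INSL3-KI mice carry, at the mouse Insl3 locus and under its native regulatory elements, the cDNA of the minke whale gene, and homozygotes make no mouse INSL3, so that the whale hormone and the loss of the mouse one are not separated by this allele. Per the study's description, INSL3-KI testes lay in the groin and INSL3-KO testes in the abdomen. Each of the 13 groups held 3 libraries labelled as biological replicates, 39 in all. The study, too, describes them as independent biological replicates. How many animals each library holds is not given in the sources used here, and p-values measure the spread between these samples.

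Apoptosis through mitochondria is set by the balance of this family. BAX and BAK permeabilize the outer mitochondrial membrane, BCL2, BCL-XL (from Bcl2l1), BCL-W (from Bcl2l2) and MCL1 hold them in check, and BH3-only proteins such as BIM (from Bcl2l11), PUMA (from Bbc3) and NOXA (from Pmaip1) relieve that check. p53 transcribes Bbc3, Pmaip1 and Bax after DNA damage and other stress. In the testis, germ cells that fail during the first wave of spermatogenesis are removed by this route, and BCL-W, BAX and BCL-XL are each known to be needed for germ cell numbers to come out right.

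On GRCm38, Bax lies on chromosome 7 (45461697 to 45466898, minus strand), Bak1 on chromosome 17 (27019810 to 27029009, minus strand), Bcl2 on chromosome 1 (106538178 to 106714274, minus strand) and Bcl2l1 on chromosome 2 (152780668 to 152831728, minus strand). Bcl2l2 lies on chromosome 14 (54883377 to 54888234, plus strand), Bcl2l11 on chromosome 2 (128126038 to 128162547, plus strand), Mcl1 on chromosome 3 (95658788 to 95663176, plus strand), Bbc3 on chromosome 7 (16308393 to 16318205, plus strand) and Trp53 on chromosome 11 (69580359 to 69591873, plus strand). Bax and Bcl2l1 are the pair whose levels moved most plainly in opposite directions, and the 300 bases around a start site of each (250 before and 50 from the start onward, RefSeq GRCm38.p6) are shown for that reason. For Bcl2l1 the start site farthest upstream was taken. The Bax window is chr7:45466849-45467148 and the Bcl2l1 window chr2:152831679-152831978, both read on the minus strand. Capitals mark CACGTG, an E-box, and GGGCGG on either strand, a GC box.
Bax: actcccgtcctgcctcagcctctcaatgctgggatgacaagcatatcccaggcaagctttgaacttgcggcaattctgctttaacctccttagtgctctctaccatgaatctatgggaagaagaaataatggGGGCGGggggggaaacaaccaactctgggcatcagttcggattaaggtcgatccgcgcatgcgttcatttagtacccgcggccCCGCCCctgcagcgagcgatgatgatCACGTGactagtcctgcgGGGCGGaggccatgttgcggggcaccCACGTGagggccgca
Bcl2l1: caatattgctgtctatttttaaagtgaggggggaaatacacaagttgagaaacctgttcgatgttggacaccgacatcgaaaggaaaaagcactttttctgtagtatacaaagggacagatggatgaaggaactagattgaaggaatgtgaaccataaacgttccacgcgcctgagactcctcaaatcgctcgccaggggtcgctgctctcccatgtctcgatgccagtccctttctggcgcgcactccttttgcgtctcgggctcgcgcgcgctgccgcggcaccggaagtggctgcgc
Counted from 1 at the 5′ end, the Bax window held CACGTG at bases 242 and 286 and GGGCGG at bases 133, 216 and 260, and the Bcl2l1 window held neither. The promoters of 9 members were searched, and the position and promoter of Pmaip1 are not reported here. Of the 14 start sites of these 9, 3 held CACGTG and 9 held GGGCGG, against 7.15% and 35.7% of all 32851 promoters. Counted by member, 3 of the 9 held CACGTG and 6 held GGGCGG at 1 or more start sites. TATAAA was found at 1 of the 14 start sites and in 13.6% of promoters. A pair of CATG cores with 6 bases between them (the core of a p53 full site), TGACGTCA (a CREB site) and GAANNTTC (a heat shock element core), searched on both strands, were in none of the 9, and in 0.712%, 1.79% and 7.86% of promoters. These matches are a description of letters in a window.

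Library totals ran from 29861447 to 45260372 counts, with a median of 36944626. The first table holds 27 libraries, WT and INSL3-KI but for WT P23 testis, and the second 12, INSL3-KO and that WT group, so that in a comparison across the tables, table and genotype cannot be told apart. Insl3, the targeted gene, was checked first. WT testis held 2722 to 3524 Insl3 counts at P8, 20844 to 25238 at P23 and 20183 to 29799 at P40, INSL3-KI testis held 15 to 33, 52 to 84 and 443 to 511, and INSL3-KO testis at P23 held 0 to 5. The P8 testis libraries labelled INSL3-KO held 613 to 906 Insl3 counts, which goes against a full knockout, and they are named by that label throughout. Gubernaculum held 25 to 87 counts in WT and 0 in INSL3-KI and INSL3-KO at P8, but at P23 the counts of INSL3-KI (12, 28 and 0) and WT (9 to 27) did not part. Sertoli and germ cell markers were present in all testis groups, and WT gubernaculum was rich in skeletal muscle genes. Among INSL3-KI libraries, replicate 2 of P8 testis, replicate 3 of P23 testis, replicate 1 of P40 testis and replicate 2 of P23 gubernaculum stood apart from their group, and results that rest on them are given with and without them.

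WT testis changed its leading BCL2 family transcript between P8 and P40. Levels of different genes are compared per length, in FPKM, which corrects for transcript length and library size. In WT testis at P8 the order was Mcl1 (mean 78.9 FPKM), Bax (62.3), Trp53 (54.8) and Bcl2l1 (27.9), with Bax and Trp53 overlapping between libraries. At P23 Bcl2l1 led with 33.8 FPKM before Mcl1 with 24.9, and at P40 Bcl2l1 stood at 55.0, Mcl1 at 28.7, Trp53 at 10.6 and Bax at 6.90. Bcl2 was the lowest of the 10 in all 8 testis groups, at 2.49 FPKM in WT at P8 and 0.130 at P40. Bcl2l1 exceeded Mcl1 in 10 of the 24 testis libraries, which were all 3 libraries of WT at P23 and P40, all 3 of INSL3-KI at P23 and replicate 1 of INSL3-KI at P40.

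**Figure D1:**
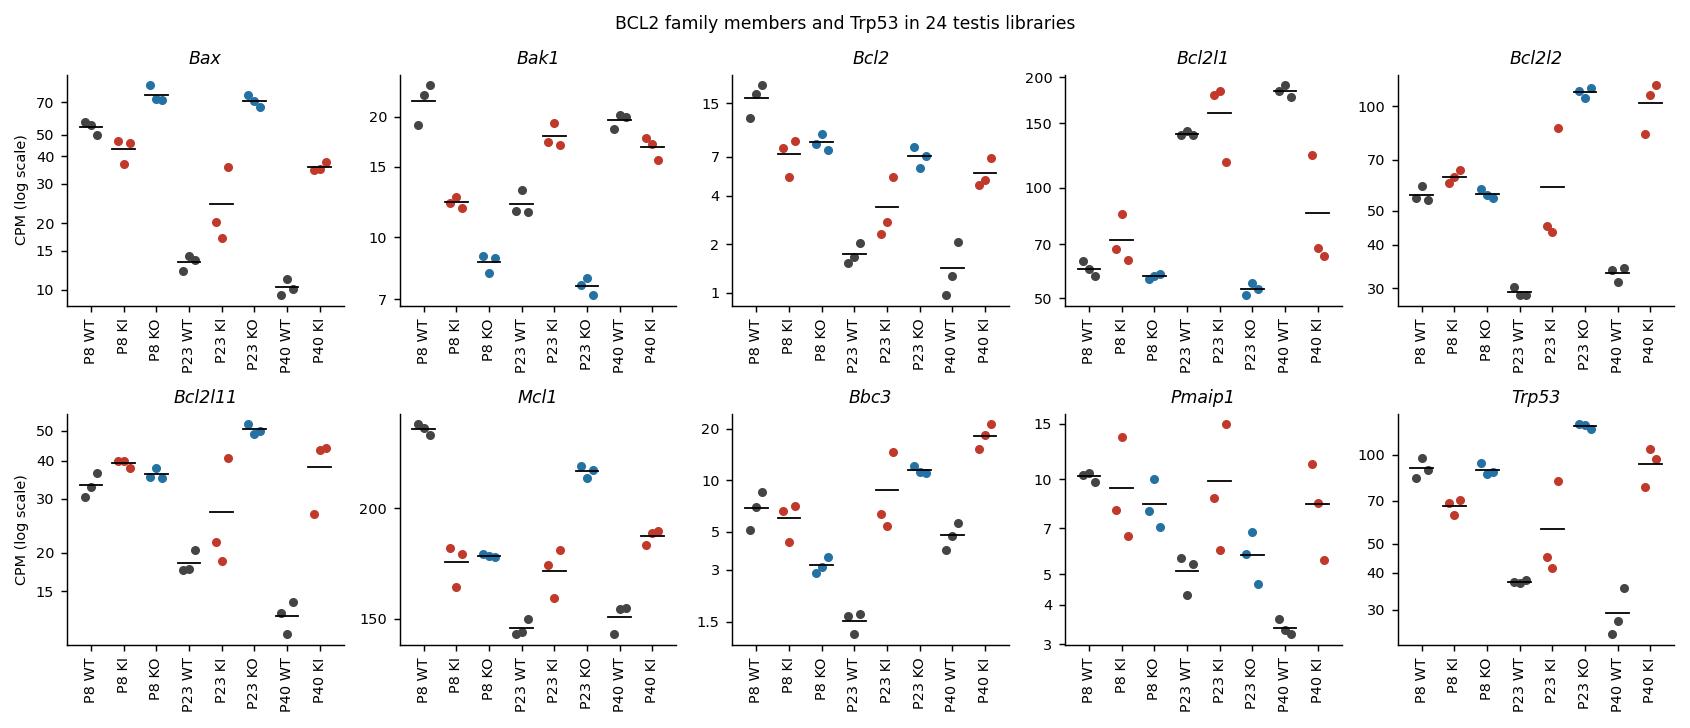
Level of each of the 10 genes in the 24 testis libraries, in CPM (counts scaled to TMM-adjusted library size over the testis libraries, log axis), by group; each dot is a library (grey WT, red INSL3-KI, blue INSL3-KO) and each bar a group mean of 3. Bcl2l1 has its highest mean in WT P40 (176 to 190 CPM), where its libraries overlap INSL3-KI at P23. Bax, Bcl2 and Trp53 have their lowest means in WT P40, with Bcl2 overlapping WT at P23. CPM depends on the TMM scaling, and directions that turn under another scaling are given in the text.

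Between P8 and P40 in WT testis, 7 of the 10 members were lower and 1 was higher, where 35.6% of the 16892 genes tested were lower and 38.2% higher. A change here means an adjusted p under 0.01 by edgeR's quasi-likelihood test with Benjamini-Hochberg adjustment over all genes tested. Levels below are CPM, counts scaled to the library's TMM-adjusted size, and effects are log2 differences between groups of 3. Bax, the effector, stood at 57.2, 55.5 and 50.1 CPM at P8 and at 9.47, 11.2 and 10.1 at P40. The groups were far apart, and the difference was -2.46 ± 0.11 (SE; adjusted p = 4.9e-07). Bcl2l1, which encodes BCL-XL, went the other way, from 63.0, 60.0 and 57.3 CPM to 183, 190 and 176, a rise of 1.55 ± 0.08 (adjusted p = 7.1e-07). Bcl2, the founding pro-survival gene, fell from 12.1, 17.2 and 19.5 CPM to 0.965, 1.27 and 2.05, by 3.54 on the log2 scale. Trp53 fell from 83.5, 97.9 and 89.2 CPM to 24.7, 27.5 and 35.3, by 1.68. Pmaip1, which encodes NOXA, and Bcl2l11, which encodes BIM, fell by 1.65 and 1.46, Bcl2l2 by 0.80 and Mcl1 by 0.76. Bak1 (-0.21, adjusted p = 0.16) and Bbc3 (-0.58, adjusted p = 0.075) did not pass the test. With libraries scaled on 12 Sertoli cell genes in place of TMM, Bcl2l2 (0.51), Mcl1 (0.55) and Bak1 (1.08) turned to higher values at P40. The summed level of 8 spermatid genes rose from at most 4.86 CPM at P8 to between 10100 and 12700 at P40 in the same libraries. Its part in these differences was not tested, and in bulk tissue fewer cells of a type and less RNA per cell cannot be told apart.

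At P40, INSL3-KI testis had more transcript of Bax, Bcl2, Bcl2l2, Bcl2l11, Bbc3, Pmaip1 and Trp53 and less of Bcl2l1 than WT testis, with TMM scaling. With the Sertoli scaling the differences of Bax (-0.0605), Bcl2l2 (-0.26), Bcl2l11 (-0.30), Mcl1 (-1.56), Pmaip1 (-0.50) and Trp53 (-0.20) turned negative. These were 7 members higher and 1 lower, where 32.7% of the 16677 genes tested were higher and 25.8% lower. The median difference was 1.67 over the members and 0.0928 over all genes tested. Relative to that median, the members ran from -1.15 to 1.90, 8 above it and 2 below.

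Among the effectors, Bax stood at 34.7, 35.04 and 37.7 CPM in INSL3-KI testis at P40, against 9.47, 11.2 and 10.1 in WT. No library of one group reached the other, and the mean was 3.62-fold higher (1.86 ± 0.12, adjusted p = 0.00016). Bak1, the second effector, stood at 17.6, 17.1 and 15.6 CPM against 18.6, 20.2 and 20. All 3 INSL3-KI libraries were below WT in CPM, yet the difference was small and did not pass the test (-0.17 ± 0.11, adjusted p = 0.18).

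Of the pro-survival genes, Bcl2l1 stood at 122, 68.4 and 65.0 CPM in INSL3-KI testis at P40 and at 183, 190 and 176 in WT. All INSL3-KI libraries were lower, with replicate 1 nearest to WT, and the log2 difference was -1.06 ± 0.25 (adjusted p = 0.0082), or -1.38 (adjusted p = 5.5e-07) without that replicate. The Bcl2l1 call was lost when any 1 of the other libraries was left out, as given below. Bcl2, at 4.66, 5.01 and 6.85 CPM against 0.965, 1.27 and 2.05, was 3.97-fold higher (1.99 ± 0.35, adjusted p = 0.0028). Bcl2l2, which encodes BCL-W, stood at 83.4, 108 and 115 CPM against 33.8, 31.3 and 34.3, a 3.21-fold rise (1.68 ± 0.17, adjusted p = 0.00044). Mcl1, with the highest mean FPKM of the 10 in this group (56.4, overlapping Trp53 at 53.8), was at 182, 188 and 188 CPM against 144, 154 and 154. Its libraries did not overlap, and the difference of 0.36 ± 0.12 missed the threshold (adjusted p = 0.033) and passed it without INSL3-KI replicate 1 (0.40, adjusted p = 7e-04). The pro-survival genes therefore did not share 1 direction.

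The BH3-only genes and Trp53 were higher. Bbc3, which encodes PUMA, stood at 15.2, 18.3 and 21.2 CPM in INSL3-KI testis at P40 and at 3.903, 4.75 and 5.67 in WT, 3.97-fold higher (1.99 ± 0.22, adjusted p = 0.00055). Bcl2l11 stood at 26.9, 43.3 and 43.9 CPM against 12.8, 10.8 and 13.8 (1.67 ± 0.25, adjusted p = 0.0014). Pmaip1 was at 11.2, 8.41 and 5.53 CPM against 3.60, 3.32 and 3.22, with the widest spread of the 3 (1.35 ± 0.27, adjusted p = 0.0042). Trp53 stood at 78.2, 105 and 96.8 CPM against 24.7, 27.5 and 35.3, 3.32-fold higher (1.73 ± 0.21, adjusted p = 0.00065). Without WT replicate 1 or WT replicate 2, 5 members passed the threshold and Bcl2, Bcl2l1 and Pmaip1 did not. Of all genes in those fits 22% and 21.9% were higher and 14.1% and 14.3% lower. Bcl2l1 also failed to pass without WT replicate 3, INSL3-KI replicate 2 or INSL3-KI replicate 3. There 28.5%, 24% and 24.1% of all genes were higher and 17%, 17.6% and 17.5% lower.

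Other values moved with these. The 8 spermatid genes summed to between 10100 and 12700 CPM in WT testis at P40 and to 49.9, 12.8 and 14.0 in INSL3-KI. The 8 spermatocyte genes summed to between 8850 and 10300 CPM in WT and to 3370, 544 and 493 in INSL3-KI, with the high value in replicate 1, where Bcl2l1 was also high. The 12 Sertoli genes summed to between 1760 and 2020 CPM in WT and to 5500, 7900 and 7450 in INSL3-KI, and the 7 macrophage genes to between 141 and 205 CPM and between 516 and 711. Their part in the members' differences was not tested.

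**Figure D2:**
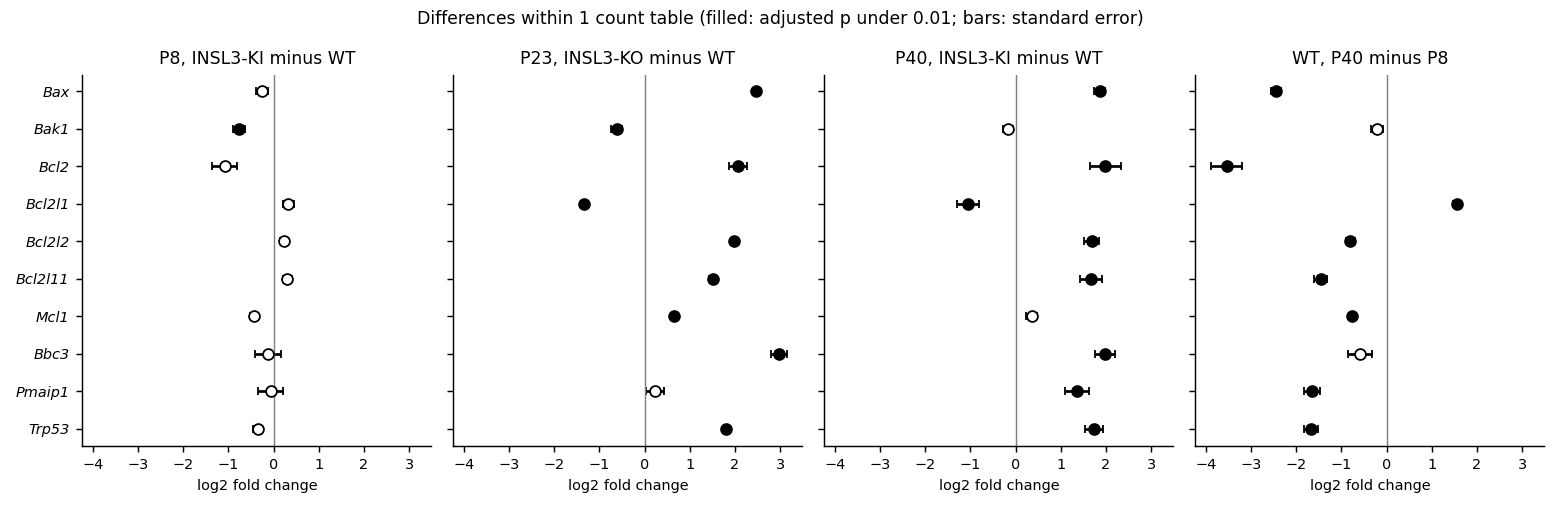
Log2 difference of each member with its standard error in 4 comparisons that lie within a table (TMM scaling, 3 libraries per group); filled points have an adjusted p under 0.01. Bax is at 1.86 in INSL3-KI against WT at P40, at 2.48 in INSL3-KO against WT at P23 and at -2.46 in WT at P40 against P8, and Bcl2l1 lies on the other side of 0 in each; under the Sertoli scaling several positive values turn negative, as given in the text.

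At P23, INSL3-KO testis differed from WT testis of the same age in 9 of the 10 members, 7 higher and 2 lower, where 41.2% of the 16732 genes tested were higher and 42.1% lower. Both groups are in the second table. Bbc3 was at 12.1, 11.1 and 11.02 CPM in INSL3-KO and at 1.61, 1.26 and 1.66 in WT, 7.86-fold higher (2.97 ± 0.17, adjusted p = 5e-08). Bax was at 76.0, 71.2 and 66.5 CPM against 12.2, 14.2 and 13.6 (2.48 ± 0.09, adjusted p = 9.9e-10). These libraries lay close together within each group and far apart between the groups. Bcl2l1 was at 50.9, 54.9 and 53.04 CPM against 139, 142 and 139, and fell by 1.34 on the log2 scale. Bcl2 was at 8.06, 5.96 and 7.04 CPM against 1.53, 1.67 and 2.04 (2.07 ± 0.20). Trp53 was at 127, 126 and 122 CPM against 37.2, 36.9 and 37.8, a rise of 1.81 (adjusted p = 3.3e-10), and these were the highest Trp53 levels of the 8 testis groups. Bcl2l2, at 111, 106 and 113 CPM against 30.2, 28.7 and 28.7, was higher by 1.97, Bcl2l11 by 1.51 and Mcl1 by 0.65.

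Bak1, unlike Bax, was lower in INSL3-KO testis at P23, at 7.60, 7.91 and 7.18 CPM against 11.7, 13.1 and 11.6 (-0.62 ± 0.12, adjusted p = 9e-04), but its value was 0.0213 with library size as the only scaling and 0.0264 on log2(FPKM + 1). Pmaip1 did not pass the test, at 5.79, 6.81 and 4.64 CPM against 5.64, 4.28 and 5.4 (0.23 ± 0.20, adjusted p = 0.28). With the Sertoli scaling, Bcl2 (-0.12), Bcl2l2 (-0.21), Bcl2l11 (-0.68), Mcl1 (-1.53), Pmaip1 (-1.95) and Trp53 (-0.38) turned negative while Bax and Bbc3 stayed positive. The median of all genes was 0.0563 with TMM, 0.694 with library size and -2.13 with the Sertoli scaling, and 8 members lay above it and 2 below. In the same libraries the spermatid genes summed to between 16100 and 18100 CPM in WT and between 14.2 and 16.6 in INSL3-KO, the spermatocyte genes to between 11500 and 11900 and between 166 and 173, and the Sertoli genes to between 2270 and 2330 and between 9900 and 10200. Their part in the result was not tested.

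**Figure D3:**
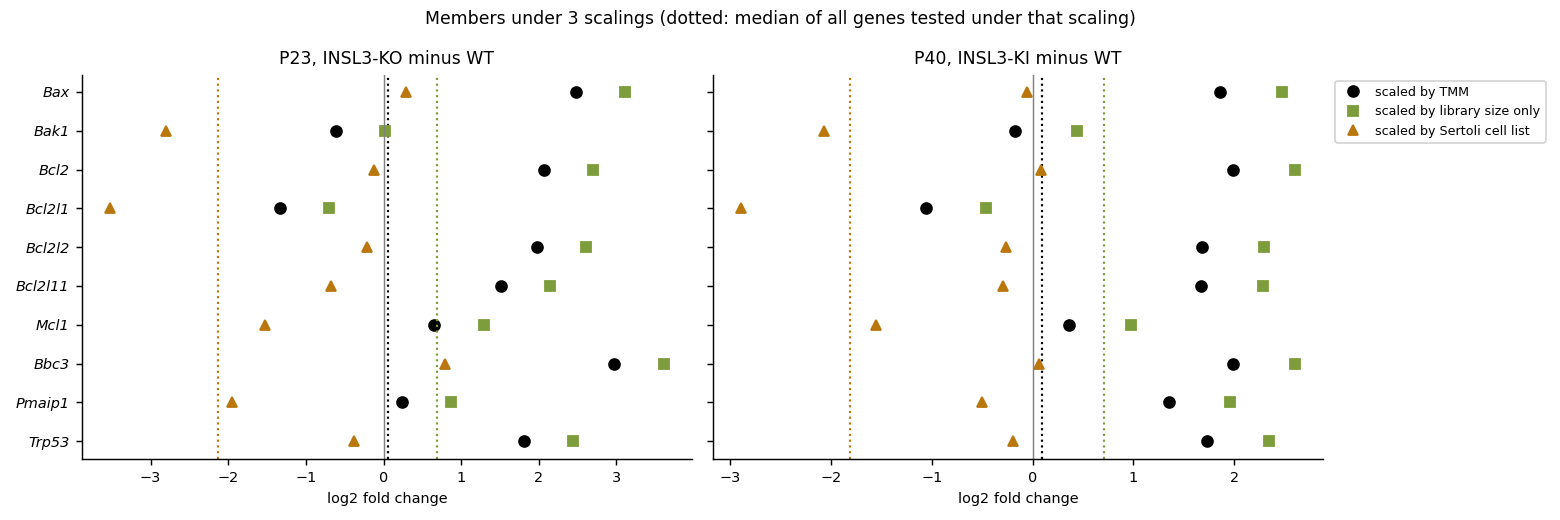
Log2 difference of each member under TMM, library size and Sertoli list scaling, in INSL3-KO against WT testis at P23 and in INSL3-KI against WT testis at P40; dotted lines are the medians of all genes under each scaling. The medians lie at 0.0563, 0.694 and -2.13 at P23 and at 0.0928, 0.703 and -1.81 at P40, a scaling shifts all genes together by construction, and the signs of several members turn with it.

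Ratios of 2 members within a library do not depend on that scaling. The Bax to Bcl2l1 ratio in FPKM was 2.24, 2.32 and 2.12 in WT testis at P8, 0.246, 0.280 and 0.280 at P23, and 0.122, 0.139 and 0.116 at P40. Bcl2l1 transcript thus exceeded that of Bax in all 6 WT libraries of the later ages. In INSL3-KO testis the ratio was 4.40, 3.80 and 3.60 at P23, above every WT testis library of any age, and in the P8 libraries labelled INSL3-KO it was 4.07, 3.60 and 3.51. In INSL3-KI testis it was 1.69, 1.03 and 1.79 at P8, 0.236, 0.204 and 0.682 at P23, and 0.668, 1.25 and 1.45 at P40. At P40 all 3 INSL3-KI libraries lay above WT. At P23 the order of INSL3-KI and WT turned on the transcript length. In FPKM replicates 1 and 2 of INSL3-KI lay below WT, but in raw counts, which use no length, the ratio was 0.113, 0.0929 and 0.303 in INSL3-KI and 0.0880, 0.1 and 0.0982 in WT, with replicate 1 above WT and replicate 2 among the WT libraries. No order is read there beyond replicate 3, which was highest on both scales. At P40 the count ratio was 0.283, 0.513 and 0.579 in INSL3-KI and 0.0518, 0.0590 and 0.0571 in WT. The Mcl1 to Bcl2l1 ratio took a like course, from between 2.76 and 2.88 in WT at P8 to 0.526, 0.528 and 0.514 at P40, against 0.978, 1.88 and 2.04 in INSL3-KI at P40 and 2.88 to 3.22 in INSL3-KO at P23. The Bax to Bcl2 ratio did not part the groups at P40, at 77.2, 67.3 and 35.4 in WT and 55.1, 52.1 and 40.1 in INSL3-KI. FPKM depends on the transcript length used, and for Bax the implied length was 889 to 926 bases in the second table and 973 to 1031 in the first. For Bcl2l1 it was 2083 to 2239 bases in INSL3-KI and 2568 to 2624 in WT at P23, and 2331 to 2485 and 2067 to 2369 at P40.

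**Figure D4:**
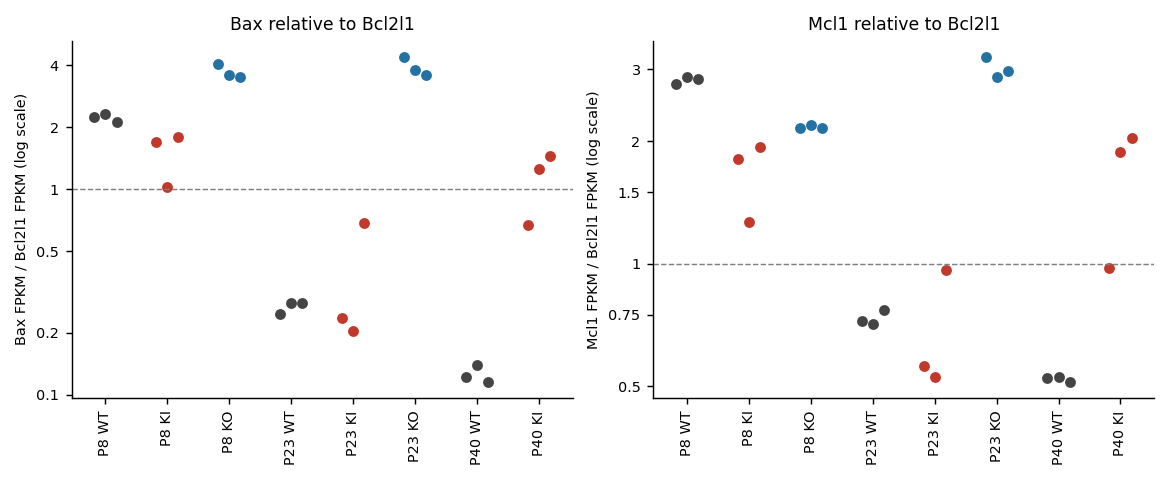
Ratio of FPKM of Bax to Bcl2l1 and of Mcl1 to Bcl2l1 in each testis library (log axis; the dashed line is 1), by group of 3. WT falls from above 2 at P8 to between 0.116 and 0.139 (Bax) and 0.514 and 0.528 (Mcl1) at P40, while INSL3-KO at P23 lies between 3.60 and 4.40 and between 2.88 and 3.22.

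The libraries of INSL3-KI testis at P23 were unlike one another. Against WT of the same age, which is in the other table, 1 member was higher and none lower, where 11.8% of the 16603 genes tested were higher and 13.7% lower. That member was Bbc3, at 6.36, 5.42 and 14.6 CPM against 1.61, 1.26 and 1.66 (2.56, adjusted p = 0.0053). Bax was at 20.3, 17.1 and 35.6 CPM against 12.2, 14.2 and 13.6, Trp53 at 45.3, 41.5 and 81.7 against 37.2, 36.9 and 37.8, and Bcl2l1 at 179, 184 and 118 against 139, 142 and 139. In each of the 3 genes INSL3-KI replicate 3 was the library nearest to INSL3-KO. That library had 83.6 CPM of the spermatid genes, against 603 and 850 in the other 2, and 5310 CPM of the Sertoli genes, against 2650 and 2080. The call of Bbc3 was lost without INSL3-KI replicate 1 or without any 1 WT library. In those fits 0.534% to 1.9% of all genes tested were higher and 1.67% to 2.74% lower. The other members, Bak1 (0.58), Bcl2 (0.99), Bcl2l2 (1.02), Bcl2l11 (0.57), Mcl1 (0.23) and Pmaip1 (0.97), had adjusted p between 0.018 and 0.16. Without INSL3-KI replicate 3, 5 members were higher and none lower, where 25.1% of all genes tested were higher and 26.8% lower. They were Bax (0.49), Bak1 (0.60), Bcl2l1 (0.38), Bcl2l2 (0.61) and Bbc3 (1.97).

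Set against INSL3-KO at P23, INSL3-KI testis had less Bax (-1.55, adjusted p = 0.0029) and Trp53 (-1.16, adjusted p = 0.0074) and more Bak1 (1.24, adjusted p = 0.00092) and Bcl2l1 (1.60, adjusted p = 0.00071). Of the 16379 genes tested 29.8% were higher and 17.3% lower. Bcl2 (-1.04), Bcl2l2 (-0.91), Bcl2l11 (-0.90), Mcl1 (-0.37), Bbc3 (-0.38) and Pmaip1 (0.78) did not pass, with adjusted p between 0.023 and 0.4. Without INSL3-KI replicate 3, 9 members passed, all but Pmaip1, where 37% of all genes tested were higher and 32.9% lower. Without INSL3-KI replicate 1 or any 1 INSL3-KO library 2 passed, both higher, and the calls of Bax and Trp53 were lost. Of all genes in those fits 17.8% to 19% were higher and 4.67% to 5% lower. Without INSL3-KI replicate 2, 2 members were higher and 1 lower, where 23.1% of all genes were higher and 9.57% lower. The Bax (0.0925) and Trp53 (0.49) differences turned positive with the Sertoli scaling, and genotype and table cannot be told apart here.

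At P8 the members differed less. Against WT, INSL3-KI testis had 1 member lower and none higher, where 5.94% of the 15702 genes tested were lower and 5.4% higher. Bak1 stood at 12.2, 12.6 and 11.8 CPM against 19.0, 22.6 and 24.0 (-0.78 ± 0.13, adjusted p = 0.0086), without overlap. The call did not hold when any 1 of 5 of the 6 libraries was left out, INSL3-KI replicate 2 among them (-0.78, adjusted p = 0.01). Without that replicate 5.54% of all genes tested were higher and 6.75% lower. Without WT replicate 2 or 3 or INSL3-KI replicate 1 or 3, hardly any gene was called, at most 0.069% higher and 0.0188% lower. Bcl2 (-1.09, adjusted p = 0.026) and Mcl1 (-0.44, adjusted p = 0.011), with Mcl1 at 180, 163 and 178 CPM against 249, 247 and 242, missed the threshold. Bax and Bcl2l1 did not pass it either, at 47.0, 37.0 and 45.9 CPM and 67.9, 84.9 and 63.4 CPM in INSL3-KI, nor did Bcl2l2 (0.24), Bcl2l11 (0.31), Bbc3 (-0.12), Pmaip1 (-0.0627) and Trp53 (-0.36), with adjusted p between 0.035 and 0.87.

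The P8 testis libraries labelled INSL3-KO had 1 member higher and 4 lower than WT, where 17.7% of the 15723 genes tested were higher and 20.6% lower, across the tables. Bak1 (-1.31, adjusted p = 0.00013), Bbc3 (-1.08, adjusted p = 0.0060), Bcl2 (-0.90, adjusted p = 0.0059) and Mcl1 (-0.45, adjusted p = 0.00026) were lower and Bax was higher (0.51, adjusted p = 0.0021). The Bax levels were 83.8, 72.5 and 71.6 CPM, the highest mean of the 8 testis groups, and they overlapped those of P23 INSL3-KO. Bbc3, at 2.89, 3.12 and 3.59 CPM, was lower than in WT at P8 (5.17, 7.02 and 8.53), whereas at P23 the INSL3-KO libraries were above WT. Bcl2l1 (-0.0436), Bcl2l2 (0.0303), Bcl2l11 (0.15), Pmaip1 (-0.27) and Trp53 (0.0082) did not pass. Without WT replicate 2, 2 members passed the threshold, where 10.8% of all genes tested were higher and 14.4% lower. Between the INSL3-KI libraries and those labelled INSL3-KO at P8, 1 member passed, Bax (-0.79, adjusted p = 0.0043), where 8.86% of genes were higher and 7.8% lower in INSL3-KI. The other members ran from -0.39 (Trp53) to 0.94 (Bbc3), among them Bak1 at 0.51 (adjusted p = 0.018), Bcl2l1 at 0.35, Bcl2 at -0.21, Bcl2l2 at 0.19, Pmaip1 at 0.19, Bcl2l11 at 0.14 and Mcl1 at -0.0053. Without INSL3-KI replicate 2, 5 members passed, where 18.3% of all genes tested were higher and 18.1% lower. Without either INSL3-KI replicate 1 or any 1 of the libraries labelled INSL3-KO none passed. Of all genes in those fits 2.45% to 4.14% were higher and 1.18% to 3.27% lower.

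Markers of several cell types moved with the P8 testis groups. The 5 fibroblast genes summed to 4770, 7650 and 14100 CPM in WT, to 2230 up to 3310 in INSL3-KI, and to 3460 up to 3560 in the libraries labelled INSL3-KO, and 4 endothelial genes to between 192 and 334, 81.2 and 122, and 99.4 and 102. The 7 Leydig cell genes, Insl3 among them, summed to between 628 and 758 CPM in WT, 187 and 211 in INSL3-KI and 437 and 456 in the libraries labelled INSL3-KO. The spermatocyte genes summed to between 44.7 and 88.9 CPM in WT, 437, 1900 and 344 in INSL3-KI, with the high value in replicate 2, and between 486 and 492 in the libraries labelled INSL3-KO. Epididymal genes, foreign to the testis, summed to 0.0999, 39.7 and 59.3 CPM in WT, 0.198, 0.506 and 124 in INSL3-KI, and 120 up to 133 in the third group. The part of these cell types in the members' values was not tested.

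The difference between INSL3-KI and WT testis was itself not the same at P40 as at P8. The interaction term is the signed log2 difference at P40 minus that at P8, so a positive term need not mean a larger difference. The interaction term, over 12 libraries of the first table, was past the threshold for 8 members, 7 positive and 1 negative, where 27.2% of genes were positive and 25.6% negative. It was 2.999 for Bcl2 (adjusted p = 0.00036), 2.04 for Bax (adjusted p = 2.2e-05), 2.04 for Bbc3 (adjusted p = 0.0011), 2.01 for Trp53 (adjusted p = 7.9e-05) and -1.47 for Bcl2l1 (adjusted p = 0.00083). With the Sertoli scaling the terms of Bcl2l2 (-0.49), Bcl2l11 (-0.57), Mcl1 (-1.10) and Bak1 (-1.27) turned negative. Of the other members, Bcl2l2 (1.37), Bcl2l11 (1.29) and Mcl1 (0.72) passed with TMM, and Pmaip1 (1.34, adjusted p = 0.01) and Bak1 (0.53, adjusted p = 0.011) did not.

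Within the INSL3-KI genotype, none of the 10 members passed the threshold between P8 and P23 (4 had an unadjusted p under 0.05, and DESeq2 called 1) or between P23 and P40 (4 and 0), where 9.74% and 0% of all genes tested were called by edgeR. Log2 differences ran from -1.24 (Bcl2) to 1.012 (Bcl2l1) in the first step and from -0.91 (Bcl2l1) to 1.07 (Bbc3) in the second, and both steps share the P23 group. With the libraries that stood apart left out, 1 from each group, 7 members passed in each step. These libraries were picked after seeing the data for lying apart, which narrows the spread within the groups by choice. Of all genes tested in those fits 34.4% were higher and 27.7% lower from P8 to P23, and 31.4% and 34.4% from P23 to P40. From P8 to P23 the members were Bax (-1.31), Bcl2 (-1.73), Bcl2l11 (-0.94), Trp53 (-0.68), Bcl2l2 (-0.50), Bcl2l1 (1.47) and Bak1 (0.61). From P23 to P40 Bcl2l1 was lower (-1.43) and Bbc3 (1.76), Bcl2l2 (1.34), Bcl2 (1.26), Trp53 (1.24), Bcl2l11 (1.12) and Bax (0.98) were higher. Mcl1 and Pmaip1 passed in neither step.

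INSL3-KO testis at P23 had 5 members higher and none lower than the P8 testis libraries labelled INSL3-KO, where 31.4% of the genes tested were higher and 30.6% lower. Bbc3, which encodes PUMA, was higher by 1.85 (adjusted p = 1.2e-07), Bcl2l2 by 0.99, Bcl2l11 by 0.50, Trp53 by 0.50 and Mcl1 by 0.33, and Bcl2l2, Bcl2l11, Trp53 and Mcl1 turned negative with the Sertoli scaling. Bax stood at 83.8, 72.5 and 71.6 CPM at P8 and at 76.0, 71.2 and 66.5 at P23, and Bcl2l1 at 56.3, 57.5 and 58.2 and at 50.9, 54.9 and 53.04. Neither passed the test between these ages, nor did Bak1 (-0.18), Bcl2 (-0.28) and Pmaip1 (-0.52).

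Genes around the members were read from lists. Of 24 p53 target genes tested at P40, 16 were higher and 1 lower in INSL3-KI than in WT, with a median of 1.27 against 0.0928 for all genes, of which 32.7% were higher and 25.8% lower. Phlda3, a p53 target that restrains AKT, was at 36.2, 40.4 and 47.6 CPM against 4.64, 4.96 and 6.20 (3.02, adjusted p = 0.00016). Eda2r, a death receptor gene, was at 2.62, 3.06 and 2.66 CPM against 0.350, 0.197 and 0.503 (3.01), Btg2, an antiproliferative target, was higher by 2.35, and Zmat3 was lower (-1.08). In INSL3-KO at P23, 19 of the 24 were higher and 1 lower, where 41.2% and 42.1% of all genes were, again with Phlda3 (3.35), Btg2 (3.25) and Eda2r (3.05) in front. Between P8 and P40 in WT testis 4 were higher and 13 lower, where 38.2% and 35.6% of all genes were. Lists were not recomputed with the Sertoli scaling.

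The regulators of p53 were mixed. In INSL3-KI at P40, 2 of 12 were higher, the damage kinase genes Chek2 (1.505) and Atm (1.02), and 3 were lower, beside the 32.7% and 25.8% of all genes. Mdm2, the ubiquitin ligase for p53, stood at 168, 79.0 and 81.3 CPM against 281, 287 and 270 (-1.32, adjusted p = 0.0079), and Ppm1d, a phosphatase that shuts the p53 response off, at 79.3, 40.9 and 43.3 against 645, 646 and 532 (-3.44, adjusted p = 0.00033). Both stood highest in the WT testis of P23 and P40, beside the spermatid genes, and the part of cell makeup was not tested. In INSL3-KO at P23, 3 were higher and 5 lower, beside 41.2% and 42.1% of all genes, among them Ppm1d (-3.82), Atr (-2.93) and Mdm2 (-1.96).

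Of 12 other BCL2 family genes tested at P40, 5 were higher, with Bmf (1.95), Bid (1.67) and Bok (1.45) in front, and 1 was lower, where 32.7% and 25.8% of all genes were. The latter was Bcl2l14, at 3.09, 0.376 and 0.538 CPM in INSL3-KI and 515, 515 and 378 in WT. In INSL3-KO at P23, 7 of 14 were higher, with Hrk (3.52), Bok (2.38) and Bnip3 (2.06) in front, and 3 were lower, where 41.2% and 42.1% of all genes were. Bcl2l14 was at 0, 0 and 0.0484 CPM there, against 663, 663 and 681 in WT. Of 20 apoptosome, caspase and inhibitor genes, 13 were higher and 2 lower in INSL3-KI at P40, beside the same 32.7% and 25.8%. Casp8, the initiator caspase of death receptors, was at 17.5, 25.6 and 24.9 CPM against 4.85, 4.69 and 6.50 (2.13), Cycs, which encodes somatic cytochrome c, was higher by 2.11 and the executioner Casp6 by 2.06, while Birc5 (-1.96) and Vdac2 (-1.67) were lower. In INSL3-KO at P23, 13 of 20 were higher and 5 lower, beside the same 41.2% and 42.1%, with Cyct, the testis form of cytochrome c, at -4.47.

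In gubernaculum at P8, INSL3-KI had 2 members lower and none higher than WT, where 18.4% of the 15500 genes tested were lower and 21.1% higher. Mcl1 stood at 183, 185 and 168 CPM in INSL3-KI and 308, 274 and 289 in WT (-0.66, adjusted p = 7e-04). Bcl2l2 stood at 44.4, 44.7 and 45.0 CPM against 75.8, 68.1 and 67.6 (-0.62, adjusted p = 0.00066). Both were below every WT library. The other 8 ran from -0.33 (Bak1) to 0.29 (Bcl2l11), with adjusted p between 0.061 and 0.67. INSL3-KO gubernaculum, in the other table, had 4 members lower and 1 higher than WT, where 27.3% of genes were lower and 27.7% higher. Bak1 was at 9.55, 9.34 and 8.81 CPM against 30.9, 27.9 and 31.4 (-1.71, adjusted p = 8e-06), Bcl2l2 was lower (-0.98), Bcl2l1 (-0.67) and Mcl1 (-0.34) also, and Bax was higher (0.56, adjusted p = 0.0029). Bbc3 (-0.79, adjusted p = 0.018), Bcl2 (-0.0534), Bcl2l11 (0.17), Pmaip1 (-0.37) and Trp53 (0.19) did not pass. Without WT replicate 3, INSL3-KO replicate 1 or INSL3-KO replicate 2, 3 members passed, all lower, and the call of Bax was lost. Of all genes tested in those fits 22%, 20.6% and 19.7% were higher and 23.6%, 21.4% and 21.3% lower. The Bax call was also lost without WT replicate 2. In that fit 4 members were lower, where 22% of all genes were higher and 22.6% lower. Between INSL3-KI and INSL3-KO, 3 members were higher and 2 lower, where 25.4% and 24.5% of genes were. They were Bak1 (1.34), Bcl2l1 (0.56), Bcl2l2 (0.33), Bax (-0.40) and Mcl1 (-0.36), while Bbc3 (0.97, adjusted p = 0.024), Bcl2 (0.19), Bcl2l11 (0.0743), Pmaip1 (0.0693) and Trp53 (-0.0065) did not pass. Without INSL3-KO replicate 1, 1 member passed, where 19% of all genes tested were higher and 18.2% lower.

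The p53 targets of the P8 gubernaculum split. In INSL3-KI, 9 of 24 were higher and 8 lower than in WT, where 21.1% and 18.4% of all genes were. Cdkn1a, which encodes the cell cycle inhibitor p21, was at 15.8, 32.3 and 16.1 CPM against 412, 366 and 367 in WT (-4.12, adjusted p = 1.5e-05), and at 36.6, 40.1 and 35.9 in INSL3-KO. Ccng1 was at 72.0 to 79.1 CPM in INSL3-KI against 460 to 470 (-2.58), and Eda2r at 3.65 to 5.48 against 39.1 to 39.5 (-2.98). Perp (3.43), Sesn2 (2.33) and Fas (1.46) were higher. At P23 no member passed the threshold between INSL3-KI and WT gubernaculum by edgeR or DESeq2, 1 had an unadjusted p under 0.05, and 2.57% of all genes were called. Mcl1 was at 170, 316 and 161 CPM against 553, 363 and 382 (-1.01, adjusted p = 0.099), and the other 9 ran from -0.11 (Bax) to 0.54 (Bcl2).

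Other cell types moved with the gubernaculum values. Skeletal muscle genes summed to between 29800 and 30100 CPM in WT at P8, 1270 and 2080 in INSL3-KI and 6970 and 7520 in INSL3-KO, and epididymal genes to at most 0.0948, between 1490 and 3070, and between 1630 and 1750. At P23 the epididymal genes summed to 0.237, 0.189 and 1280 CPM in WT and 3640, 1.78 and 8700 in INSL3-KI. At P8 smooth muscle and peritubular genes summed to between 945 and 1280 CPM in WT, 14200 and 17600 in INSL3-KI and 6460 and 6840 in INSL3-KO, and adipocyte genes to between 89.0 and 101, 729 and 984, and 1880 and 2090. Fibroblast genes ran from 23700 to 25400 CPM in WT, from 10200 to 15900 in INSL3-KI and from 15400 to 16400 in INSL3-KO, and macrophage genes from 376 to 705, 209 to 244 and 473 to 475. At P23 the spread within INSL3-KI was wide, with 1680, 118 and 1470 CPM of skeletal muscle genes against 58600 to 105000 in WT. Adipocyte genes were at 6090, 14200 and 470 CPM there against 115 to 152, and smooth muscle and peritubular genes at 12800, 1670 and 11500 against 732 to 3860. The part of these cell types in the members' values was not tested.

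**Figure D5:**
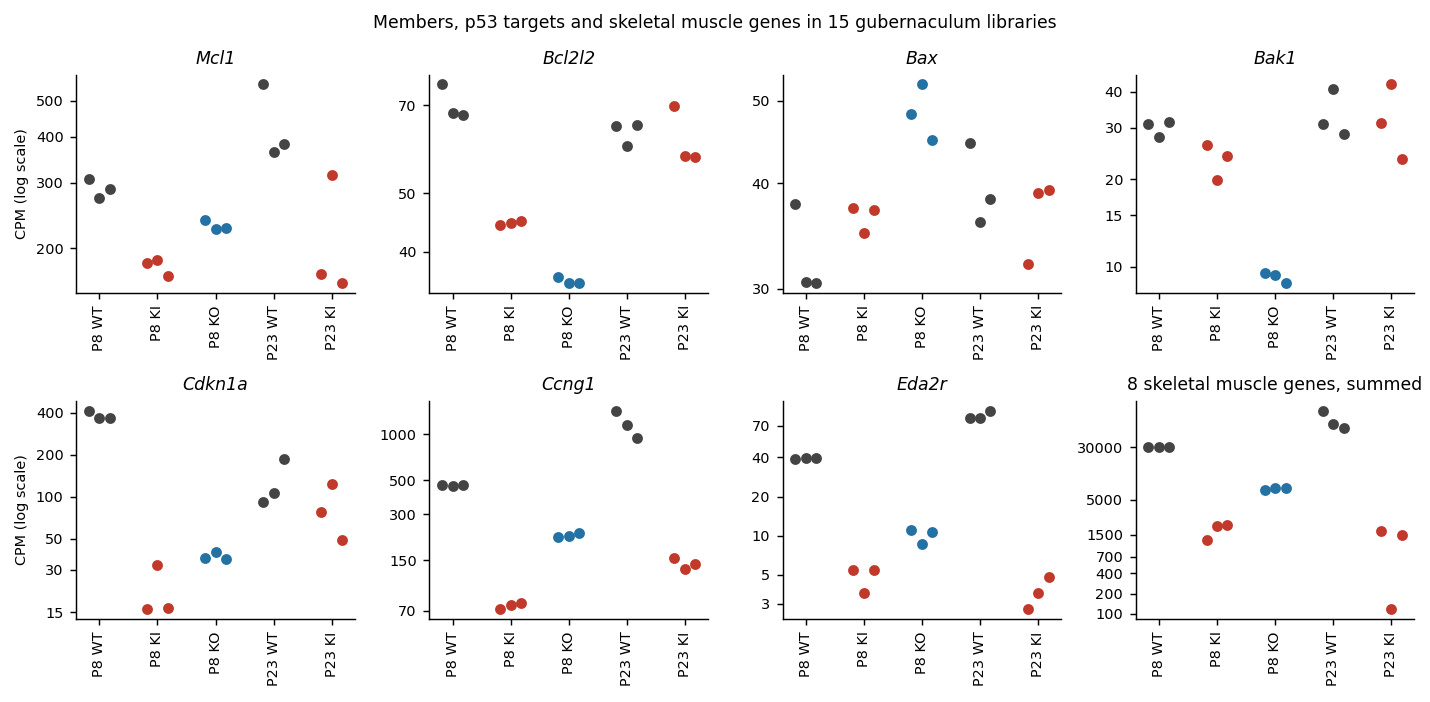
Levels of Mcl1, Bcl2l2, Bax, Bak1, Cdkn1a, Ccng1 and Eda2r and the sum of 8 skeletal muscle genes in the 5 gubernaculum groups of 3 libraries. Values are CPM, TMM-scaled over the gubernaculum libraries, on a log axis, and each dot is a library. At P8 Cdkn1a falls from between 366 and 412 in WT to between 15.8 and 32.3 in INSL3-KI, in the same libraries where the muscle genes fall from between 29800 and 30100 to at most 2080.

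In WT mice at P8, gubernaculum had 3 members higher and 3 lower than testis, where 21.6% of genes were higher and 22.3% lower. Bcl2 (1.52), Bak1 (0.56) and Bcl2l2 (0.44) were higher and Pmaip1 (-0.97), Bax (-0.62) and Bcl2l11 (-0.52) lower. With 1 library left out at a time between 1 and 5 members passed the threshold, and 1 passed without gubernaculum replicate 2 (where 14.5% of all genes were higher and 15.4% lower) or testis replicate 2 (12.4% and 14.2%). Bcl2l1 (-0.23), Mcl1 (0.34), Bbc3 (0.32) and Trp53 (-0.37) did not pass, with adjusted p between 0.015 and 0.24. Fibroblast genes summed to between 23700 and 25400 CPM in these gubernaculum libraries and to 4770, 7650 and 14100 in the testis ones, and their part was not tested.

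Across the 24 testis libraries the members fell along shared lines, given here as a description of libraries that share 8 groups and 2 tables. Pearson's r of log2 CPM was 0.933 between Bax and Trp53, 0.899 between Bax and Bcl2 and -0.932 between Bax and Bcl2l1. With the summed marker genes, r was 0.958 for Trp53, 0.940 for Bcl2l2 and 0.925 for Bcl2l11 with the Sertoli list, 0.920 for Bcl2l1 and -0.922 for Mcl1 with the spermatocyte list, and -0.933 for Bax and -0.936 for Bcl2 with the spermatid list. Bak1 followed neither, with r of 0.257 with the spermatid and -0.508 with the Sertoli list. Among 11121 genes compared, those most like Bax were Cdc42 (0.988) and Mat2b (0.987), those most like Bcl2l1 were Crybg3 and Trip12 (both 0.994), and those most like Trp53 were Rap1b (0.991) and Tpp1 (0.989). Dsel (0.988) and Xiap (0.986) were nearest to Bcl2, and Scara5 and Ormdl3 (both 0.986) to Bcl2l2. The likeness was lowest for Pmaip1, with Thumpd1 at 0.865 and Mrps5 at 0.842.

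Some members share their position with other genes. Bak1 lies within the antisense gene Ggnbp1, which held 323 to 30401 counts in the libraries of the first table and 272 to 24944 in the second, and without a stated strand setting the reads of both cannot be told apart. Bcl2l2 overlaps the read-through gene Gm20521 (0 to 583 counts in the first table, 0 in the other). The length implied by counts and FPKM was 1012 to 1163 bases for Bcl2l11 in WT P23 testis and 4276 to 5206 bases in the other libraries, so its FPKM in that group is not on the scale of the others, and its CPM is used above.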

How the data were processed

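mRNA libraries of 39 mouse samples were read from both ends (Illumina NovaSeq). The authors mapped reads with HISAT2, per the submitters' processing notes to GRCm38, and deposited raw counts per gene and FPKM (counts scaled by transcript length and library size), each in 2 tables. The counting program, its strand setting and the annotation release are not given in the sources used here. The tables, with 38822 and 58374 entries, were joined on the Ensembl identifier, and the 21561 shared genes hold 94.16% to 97.86% of the counts of a library.

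Counts were tested per pair of groups with edgeR 4.0.16 in R 4.3.3 (TMM, filterByExpr at min.count 10 and min.total.count 15, quasi-likelihood test, Benjamini-Hochberg over all genes tested). A change is an adjusted p under 0.01, and 2-fold changes were counted apart. There were 16 pairwise comparisons and 1 interaction. Replicates differed by 3.18 to 162 times the sampling noise, so none was a copy of another. That measure cannot tell whether libraries share an animal or an RNA pool. All 3 same-numbered pairs of samples deviated together (correlation over 0.1) in 0 of 16 comparisons. Alternatives were DESeq2 1.42.0, library size, a scaling on 12 Sertoli cell genes, no filter, 1 fit over a tissue, a block on the replicate number, limma 3.58.1 on log2(FPKM + 1) and log2(FPKM + 0.1), and each library left out. Leaving out all INSL3-KI libraries that stand apart together was chosen after seeing the data. Scripts were tested on simulated data in which few genes were changed, with the libraries of INSL3-KI and WT testis at P40 as the model. The sizes of change were recovered, but most of the changes set there missed the threshold, so that a member that did not pass is not shown to be unchanged. Figures used matplotlib 3.10.9 in Python 3.11.15.

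All 10 members were tested in every comparison and are given by value or by range, and from each pathway list up to 3 genes in each direction with the largest change past an adjusted p of 0.01 and 2-fold. Likeness names the 2 genes with the highest correlation among those with a mean of at least 10 CPM. The members and lists were chosen with earlier results of these data known. Gene positions are from GENCODE on GRCm38 and promoters from RefSeq GRCm38.p6.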

Additional observations from a re-analysis of the deposited data

Results flagged for a closer look

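The INSL3-KI effect in testis (INSL3-KI against WT) differed between P40 and P8 for 8 of the 10 members by the interaction term of edgeR's test, where 27.2% of all genes tested had a positive and 25.6% a negative term past an adjusted p of 0.01. The term is the log2 difference at P40 minus that at P8. It was 2.04 for the effector gene Bax, 2.04 for Bbc3, 2.01 for Trp53 and 2.999 for Bcl2, whose own differences were negative at P8 and positive at P40 with TMM scaling. It was 1.37 for Bcl2l2 and 1.29 for Bcl2l11, which encodes BIM. It was 0.72 for Mcl1 and -1.47 for Bcl2l1, the one member of the 8 with a negative term. Without the libraries that stood apart, a choice made after seeing the data, 9 members were past the threshold. In that fit 28.4% of all genes had a positive and 29.5% a negative term. Bax was at 1.98, Bcl2 at 2.92, Trp53 at 2.08 and Bcl2l1 at -1.66. Groups of 3 libraries are too small for a test of single outlying libraries.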

How the results depend on the processing

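The counts of members past an adjusted p of 0.01 depended on the fit where few passed. For INSL3-KI against WT testis at P8 (1 member) the count was 3 with DESeq2, 0 with library size, 3 with all groups of the tissue in 1 fit, 0 with the replicate block and 0 with the Sertoli scaling. For the libraries labelled INSL3-KO against WT at P8 (5) it was 3 in 1 fit. For INSL3-KI against those libraries (1) it was 4 with DESeq2, 2 in 1 fit, 0 with the block, 2 with the Sertoli scaling and 2 on log2(FPKM + 1) and on log2(FPKM + 0.1). At P23, INSL3-KI against WT (1) gave 2 with DESeq2, 5 with library size and 4 in 1 fit, and INSL3-KI against INSL3-KO (4) gave 8 with DESeq2 and 8 in 1 fit. INSL3-KI against WT at P40 (8) gave 3 with the Sertoli scaling, as did the interaction (8, and 3), and WT at P40 against P8 (8) gave 5. In gubernaculum at P8, 1 fit gave 1 for INSL3-KI against WT (2), 3 for INSL3-KO against WT (5) and 1 for INSL3-KI against INSL3-KO (5), which had 3 with library size and 3 with the block. At P23 INSL3-KI against WT (0) gave 1 in 1 fit. INSL3-KI testis at P23 against P8 (0) gave 1 with DESeq2, 4 in 1 fit and 7 without the libraries that stood apart, and at P40 against P23 (0) 4 in 1 fit and 7 without them. INSL3-KO testis at P23 against P8 (5) gave 9 with library size, 3 in 1 fit and 9 with the Sertoli scaling. WT gubernaculum against testis (6) gave 3 in 1 fit and 2 with the block. The replicate block changed no other count by over 1.5 times. In no comparison did all 3 same-numbered pairs of samples deviate together (correlation over 0.1). In some, 2 pairs did and the third had a negative correlation, as in INSL3-KI testis at P40 against P23 (0.591, -0.527 and 0.539). The share of all genes called in the same fits is not set beside these counts. They describe the fits and are no result about the members. The causes of these differences were not tested.

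With each library left out in turn, the counts ran from 0 to 1, 2 to 5 and 0 to 5 in the 3 comparisons of P8 testis. In order, these were INSL3-KI against WT, those labelled INSL3-KO against WT, and INSL3-KI against the latter. In these fits 0% to 5.54%, 9.57% to 23.3% and 2.45% to 18.3% of all genes tested were higher. Those lower made up 0% to 6.75%, 12.9% to 23.5% and 1.18% to 18.1%. The counts ran from 0 to 5, 9 to 9 and 2 to 9 in the comparisons of P23 testis, in the same order. For INSL3-KI against WT at P40 they ran from 5 to 9. Of all genes 0.534% to 25.1%, 38.6% to 39.4%, 17.8% to 37% and, at P40, 21.9% to 36.8% were higher. Those lower made up 1.67% to 26.8%, 39.9% to 41.7%, 4.67% to 32.9% and, at P40, 14.1% to 38.4%. In gubernaculum the counts ran from 2 to 2, 3 to 6 and 1 to 6 at P8 and 0 to 0 at P23. There 15.5% to 19.4%, 19.7% to 29.3%, 18.8% to 23.9% and, at P23, 0% to 0.9% of all genes were higher. Those lower made up 12.6% to 18.1%, 21.3% to 29%, 17.7% to 23.1% and, at P23, 0.123% to 3.23%. Over age the counts ran from 8 to 8 in WT, 0 to 5 and 0 to 0 in INSL3-KI and 5 to 6 in INSL3-KO. Of all genes 34.9% to 38.4%, 0% to 20.4%, 0% to 0% and 28.4% to 29.9% were higher. Those lower made up 30.1% to 35.1%, 0% to 16.4%, 0% to 0% and 26.8% to 29%. The counts ran from 1 to 5 between WT tissues, and from 8 to 9 for the interaction. Between the tissues 12.4% to 20.3% of all genes were higher and 14.2% to 20.4% lower. For the interaction 22.8% to 29% had a positive and 17.6% to 30.1% a negative term. These counts and shares describe the fits and are no result about the members.

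Of 2234 values of single members under an alternative, 1936 kept their side of the threshold, 126 passed it and 141 lost it. The other 31 turned sign and passed the threshold in the main fit, the alternative or both. A turn of sign where neither fit passed is counted among the 1936. In INSL3-KO against WT testis at P23, Bak1 was 0.0213 with library size, 0.0264 on log2(FPKM + 1) and 0.0341 on log2(FPKM + 0.1), and Bcl2l11 was -0.0699 and -0.0758 on the FPKM scales. The others of the 31 came with the Sertoli scaling, which lowers or raises all genes together. In that comparison it gave Bcl2 -0.12, Bcl2l2 -0.21, Bcl2l11 -0.68, Mcl1 -1.53, Pmaip1 -1.95 and Trp53 -0.38, and in INSL3-KI against INSL3-KO at P23 Bax 0.0925, Bbc3 1.19 and Trp53 0.49. In INSL3-KI against WT at P40 it gave Bax -0.0605, Bcl2l2 -0.26, Bcl2l11 -0.30, Mcl1 -1.56, Pmaip1 -0.50 and Trp53 -0.20, and in WT at P40 against P8 Bak1 1.08, Bcl2l2 0.51 and Mcl1 0.55. In INSL3-KO at P23 against P8 it gave Bcl2l2 -0.0209, Bcl2l11 -0.51, Mcl1 -0.68 and Trp53 -0.50, and for the interaction Bak1 -1.27, Bcl2l2 -0.49, Bcl2l11 -0.57 and Mcl1 -1.10. With it, the genes changed at least 2-fold at P23 in INSL3-KO against WT went from 5199 higher and 5584 lower to 201 and 11528. In INSL3-KI against WT at P40 they went from 4264 and 3690 to 63 and 10473, and to 6583 and 2458 with library size.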
